A study of Mus musculus with 6 samples.

Results

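Inflammasome genes and alarmins of the interleukin-1 (IL-1) family were followed in organoids of mouse esophageal epithelium. The set held 10 genes of the 32285 in the deposited tables: Nlrp10, Casp1, Casp4, Pycard and Gsdmd of the inflammasome, and Il18, Il1a, Il1b, Il33 and Il1rn of the IL-1 family. The genes were chosen by their names and from values already seen in these libraries, so the Cyto-ID comparison and the levels by layer are given below as descriptions, and their p-values describe the fit and support nothing. Of 26808 deposited cells, the 25154 with at least 500 detected genes were used.

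The organoids were founded by integrin-b1 positive, DAPI negative basal cells of C57BL6 mice that had been sorted by Cyto-ID, a dye of autophagic vesicles, into Cyto-ID Low and Cyto-ID High cells. Integrin-b1 is a surface protein of basal cells, and DAPI enters dead cells. All organoids grew for 15 days in Matrigel with EGF, Noggin, R-Spondin and the ROCK inhibitor Y27632. They were then broken up into single cells, cleared of dead cells and profiled by 3′ droplet sequencing, in which each captured transcript carries a molecular identifier (UMI). Each group held 3 libraries, named F2, M3 and F6, and the Cyto-ID state is that of the founders, not of the cells profiled. The labels do not say whether the libraries of a group came from separate animals, so p-values measure only the spread between these libraries.

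Inflammasomes are cytosolic platforms in which a sensor recruits the adaptor ASC (Pycard) and caspase-1. Active caspase-1 cuts the precursors of IL-1β and IL-18 and the pore protein gasdermin D, whereas caspase-11, the product of Casp4, senses cytosolic lipopolysaccharide and also cuts gasdermin D. IL-1α and IL-33 do not need caspase-1 to act and are released as alarmins when barrier cells are damaged. In squamous epithelium these proteins are stored by keratinocytes, and messenger levels do not show whether an inflammasome is active or a cytokine is released.

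Median UMIs per kept cell ranged from 1940 (Cyto-ID High F6) to 10040 (Cyto-ID High F2), and the shallower library of the pair was the Cyto-ID High one in M3 and F6 and the Cyto-ID Low one in F2. Any pair of libraries shared at most 10 barcode sequences, and at most 0.315% of the smaller library. Levels are given in CPM, a gene's UMIs per 1000000 UMIs of the cell, averaged over the cells of a library. All 10 basal, 10 suprabasal, 10 superficial and 10 proliferation markers had UMIs in every library. Of 12 immune markers, 3 to 5 had any UMI, with a summed level of 9.58 to 26.9 CPM that came almost wholly from Cd68 and Itgam. Ptprc, Tyrobp, Cd52, Adgre1 and Cd207, markers of leukocytes, macrophages and Langerhans cells, were at 0 in all libraries. The summed level of 5 fibroblast markers was 0.272 to 1.32 CPM in 5 libraries and 4.95 CPM in Cyto-ID High F6, where Dcn was at 2.16 CPM. Col1a2 and Lum had UMIs in that library and were at 0 in the other 5.

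Clustering without the 10 genes gave 10 clusters, which are named here by their leading gene. Of these, 3 were basal-like (led by Tmem176b, U90926 and Igfbp2), 2 proliferating-like (Birc5 and Mcm3), 2 suprabasal-like (Il33 and Calm4) and 1 superficial-like (Sprr2f). The clusters led by Krt12 and by Ifit3b had no class. Cluster medians below are over libraries with at least 50 cells of the cluster. For Calm4 these were 2 Cyto-ID Low and 3 Cyto-ID High libraries. At Louvain resolutions of 0.3 and 1.0 a smaller cluster led by U90926, of 369 and 386 cells, scored as fibroblast-like, with Lgals1, Tnc, Vim and Fn1 next among its leading genes. At resolution 0.3 it was 2.89%, 0.736% and 2.30% of Cyto-ID High F2, M3 and F6, and 2.09%, 0.392% and 0.412% of Cyto-ID Low F2, M3 and F6, and its part in the results was not tested. Cluster make-up moved with the groups: the Igfbp2 cluster was 12.7% to 13.6% of Cyto-ID High and 3.08% to 4.84% of Cyto-ID Low libraries, and the Calm4 cluster 9.41% to 14.8% and 1.76% to 4.10%. The cluster led by Il33 was 11.2% to 11.7% of Cyto-ID High and 14.5% to 21.4% of Cyto-ID Low libraries, and the Birc5 cluster 9.95% to 14.8% and 4.57% to 8.14%. The Sprr2f cluster was 10.7%, 8.88% and 3.55% of Cyto-ID High F2, M3 and F6, and 19.6%, 8.35% and 12.5% of Cyto-ID Low F2, M3 and F6. For Casp4, Nlrp10, Casp1, Il18, Il33 and Il1a the differences in all cells are therefore also given with clusters weighted alike in every library (equal cluster shares). The Ifit3b cluster is an exception. It held 99, 98 and 1 cells in Cyto-ID Low F2, M3 and F6, and 114, 2 and 0 in Cyto-ID High F2, M3 and F6. It therefore added nothing in Cyto-ID High F6, and its weight rested on 1 or 2 cells in Cyto-ID Low F6 and Cyto-ID High M3.

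Promoters, from 250 bases before to 50 after a transcription start, were read from RefSeq (GRCm38.p6), which matched 8 of the 10 genes. Those of Casp4, Il18, Il1a and Il33 are shown because each of these genes passed the paired fit of founders in at least 1 cell class below, Il18 in the opposite direction to the other three. Capitals mark matches on either strand to an NF-kB-type motif, GGGNNTTTC, or an AP-1 motif, TGANTCA. These motifs occur in 4.36% and 7.81% of 32851 promoters of this length. An interferon-type motif, GAAANNGAA (8.56% of promoters), was not found in the promoters of the 8 genes. A match is a description of letters, not of binding. Of the genes not shown, Il1rn held 1 AP-1 match at its first start and 1 NF-kB-type match at its later starts. Casp1, Pycard and Il1b held neither motif.

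Casp4 held 2 NF-kB-type matches (chr9:5308599-5308898, plus strand).
Casp4: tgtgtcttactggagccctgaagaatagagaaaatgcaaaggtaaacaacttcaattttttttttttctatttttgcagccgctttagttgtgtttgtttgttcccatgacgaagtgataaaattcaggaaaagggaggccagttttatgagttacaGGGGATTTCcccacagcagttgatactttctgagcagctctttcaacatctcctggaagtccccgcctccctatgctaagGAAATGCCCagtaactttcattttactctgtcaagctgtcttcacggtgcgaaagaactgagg
Il18 held 1 NF-kB-type match, downstream of the start (chr9:50554450-50554749, plus strand).
Il18: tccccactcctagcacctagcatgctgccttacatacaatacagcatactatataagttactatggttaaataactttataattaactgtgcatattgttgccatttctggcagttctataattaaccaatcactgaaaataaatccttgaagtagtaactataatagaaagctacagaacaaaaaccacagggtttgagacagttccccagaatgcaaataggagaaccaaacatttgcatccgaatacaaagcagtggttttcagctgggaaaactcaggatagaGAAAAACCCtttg
Il1a held 1 AP-1 match close to the start (chr2:129309923-129310222, minus strand).
Il1a: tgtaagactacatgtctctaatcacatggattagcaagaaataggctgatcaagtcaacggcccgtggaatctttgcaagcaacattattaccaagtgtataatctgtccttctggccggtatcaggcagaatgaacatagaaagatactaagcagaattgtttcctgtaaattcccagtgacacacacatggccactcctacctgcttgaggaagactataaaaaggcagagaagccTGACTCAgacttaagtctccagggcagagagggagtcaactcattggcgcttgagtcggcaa
Il33 held no match at its first start (chr19:29924863-29925162, plus strand).
Il33: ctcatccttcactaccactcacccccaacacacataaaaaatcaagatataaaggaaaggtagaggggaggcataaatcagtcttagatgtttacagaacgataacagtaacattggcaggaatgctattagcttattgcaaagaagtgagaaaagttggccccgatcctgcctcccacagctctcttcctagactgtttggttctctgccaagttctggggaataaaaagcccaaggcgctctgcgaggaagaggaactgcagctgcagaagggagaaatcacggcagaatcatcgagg

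Nlrp10, a small member of the NLR family without the leucine-rich repeats of its relatives, lies at chr7:108921852-108930178 (GRCm38, minus strand). Its level was highest in basal-like cells. Its median level over libraries was 71.0 CPM in the U90926 cluster and 59.5 CPM in the Tmem176b cluster, 26.3 and 26.9 CPM in the proliferating clusters, 22.9 CPM in the cluster led by Il33, 12.2 CPM in superficial-like cells and 1.85 CPM in the Calm4 cluster. Suprabasal-like cells held 0.198 to 0.676 of the basal-like level within the same library, and the basal-like level was the higher one in all 6 libraries. The third basal-like cluster, led by Igfbp2, was low at a median of 13.7 CPM. Levels there were 51.4, 44.1 and 22.8 CPM in Cyto-ID Low F2, M3 and F6, and 4.59, 2.94 and 0 CPM in Cyto-ID High F2, M3 and F6. In Cyto-ID Low F6 that cluster held 82 cells.

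The inflammatory caspase genes Casp1 (chr9:5298517-5307265) and Casp4 (chr9:5308828-5336783) are neighbours on the plus strand with 1562 bases between them. They differed in their layers. Casp1 ranged over libraries from 12.4 to 21.8 CPM in basal-like, 9.37 to 21.7 in proliferating-like and 8.25 to 16.6 in suprabasal-like cells, and from 0 to 4.37 CPM in superficial-like cells. The superficial-like level was below the basal-like and the suprabasal-like level in 6 of 6 libraries. Casp4 was spread more evenly, with median levels between 8.51 CPM in superficial-like and 14.9 CPM in basal-like cells, and ranges over libraries that overlapped between all classes. Among single clusters Casp4 was lowest in the Calm4 cluster (2.26 CPM), where Casp1 was at 18.7 CPM. Casp4 there was at 5.93 to 9.37 CPM in 2 Cyto-ID Low and 0 to 2.26 CPM in 3 Cyto-ID High libraries.

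Pycard, the ASC adaptor (chr7:127989708-127993867, minus strand), had its highest level in suprabasal-like cells in each library, at 1.93 to 2.53 times the basal-like level. Suprabasal-like cells held 486 to 882 CPM, basal-like cells 217 to 437 CPM and superficial-like cells 145 to 285 CPM. The Calm4 cluster was highest, with a median of 849.9 CPM. After each cell was thinned to 1000 UMIs, a median of 44.3% of suprabasal-like and 25.9% of basal-like cells had a Pycard UMI. Gsdmd, the pore protein (chr15:75862327-75867408), was scarce, with 505 UMIs in all. It was lower in suprabasal-like than in basal-like cells in 6 of 6 libraries, at 0.204 to 0.49 of the basal-like level, and the classes spanned 0.59 to 2.88 and 1.72 to 9.19 CPM.

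The caspase-1 substrates were unequal. Il18 (chr9:50554827-50581840) was at medians of 8.24 CPM in basal-like, 15.4 CPM in suprabasal-like and 12.2 CPM in superficial-like cells, with ranges that overlapped. Within a library the suprabasal-like level was 0.907 to 6.65 times the basal-like level and higher in 5 of 6 libraries, and the superficial-like level was above the basal-like one in 5 of 6. Il1b (chr2:129364570-129371139, minus strand) gave 1 UMI, in a suprabasal-like cell of Cyto-ID Low F2, among 25154 cells. In the other 5 libraries no Il1b UMI was found, which allows up to 0.0614 CPM in Cyto-ID High F2, the deepest library, and up to 0.364 CPM in Cyto-ID Low F6, counting 3 UMIs as the limit and counting error only.

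**Figure D1:**
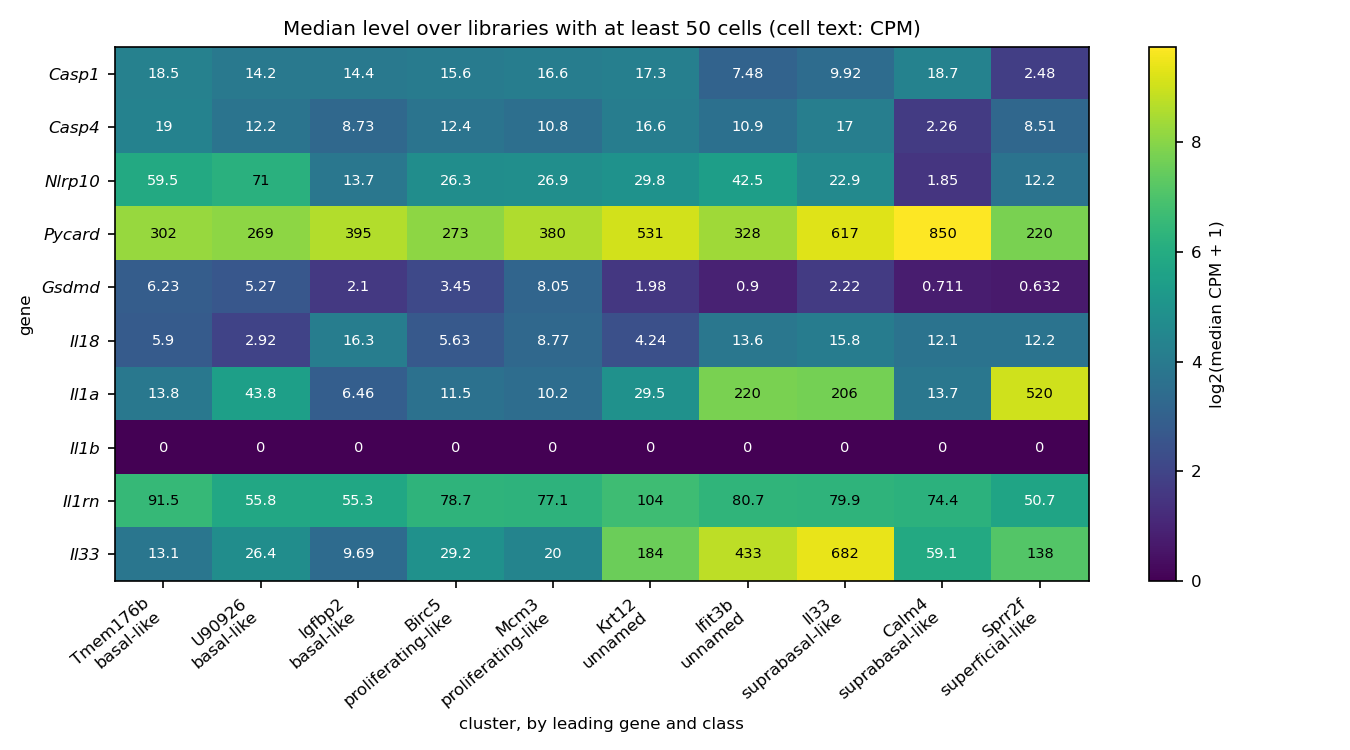
Median level of each gene (rows) over libraries with at least 50 cells of a cluster (columns, by leading gene and class), coloured by log2(CPM + 1) with the CPM written in each cell. Nlrp10 is highest in the basal-like clusters led by Tmem176b and U90926, Pycard in the Calm4 cluster, Il33 in the cluster it leads and Il1a in the superficial-like Sprr2f cluster, while Il1b is at 0 throughout.

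The alarmins had their maxima in different outer layers. Il33 (chr19:29925114-29960718), which acts on the receptor ST2, was at 222 to 697 CPM in suprabasal-like cells and 9.30 to 24.7 CPM in basal-like cells, a ratio of 17.0 to 35.3 within the same library. It was lower again in superficial-like cells, at 0.127 to 0.602 of the suprabasal-like level. This order rested on the cluster led by Il33, at a median of 681.6 CPM, whose marker scores were 0.68 for suprabasal and 0.49 for superficial. In the Calm4 cluster mean Il33 was 217.7 CPM in Cyto-ID Low (2 libraries) and 54.75 CPM in Cyto-ID High. Superficial-like means were 124 and 118.7 CPM. The clusters without a class, led by Krt12 and Ifit3b, had medians of 183.6 and 433 CPM. Il33 had been left out of the genes used for clustering and still led a cluster. In the thinned cells a median of 30.3% of suprabasal-like and 1.44% of basal-like cells had an Il33 UMI.

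Il1a (chr2:129299610-129309972, minus strand) encodes IL-1α, which is active without cleavage, and had its maximum further out. Superficial-like cells held 163 to 697 CPM, suprabasal-like cells 44.8 to 437 CPM and basal-like cells 4.48 to 42.9 CPM, and this order held in 6 of 6 libraries. Within the suprabasal class the cluster led by Il33 had a median of 206 CPM and the Calm4 cluster 13.7 CPM. In the Calm4 cluster Il1a was at 26.6 to 49.8 CPM in 2 Cyto-ID Low and 8.21 to 13.7 CPM in 3 Cyto-ID High libraries. Genes on the opposite strand overlap Il1a (Gm14023), Il1b (Il1bos), Il18 (Bco2 and Tex12) and Pycard (Gm45205), so reads of these pairs are separated only as far as counting used the strand, which is not given in the sources used here.

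Il1rn, the gene of the IL-1 receptor antagonist that blocks IL-1α and IL-1β (chr2:24336853-24351494), showed no such gradient. Its cluster medians lay between 50.7 and 103.9 CPM. The suprabasal-like level was 0.691 to 1.52 times the basal-like level and was higher in 3 of 6 libraries, and the superficial-like level was below the basal-like one in 6 of 6. The ratio of Il1rn to Il1a was 1.76 to 9.94 in basal-like, 2.76 to 10.2 in proliferating-like, 0.188 to 1.06 in suprabasal-like and 0.0512 to 0.272 in superficial-like cells. UMIs of 3′ ends count transcripts whatever their length, but capture can differ between genes. The order of the ratios across the 4 classes is therefore firmer than their size. The 2 suprabasal-like clusters differed. In the Calm4 cluster mean Il1rn and Il1a were 90.7 and 38.2 CPM in Cyto-ID Low (2 libraries), and 60.0 and 11.2 CPM in Cyto-ID High. In the cluster led by Il33 they were 74.8 and 287.7 CPM in Cyto-ID Low, and 81.0 and 209.5 CPM in Cyto-ID High.

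**Figure D2:**
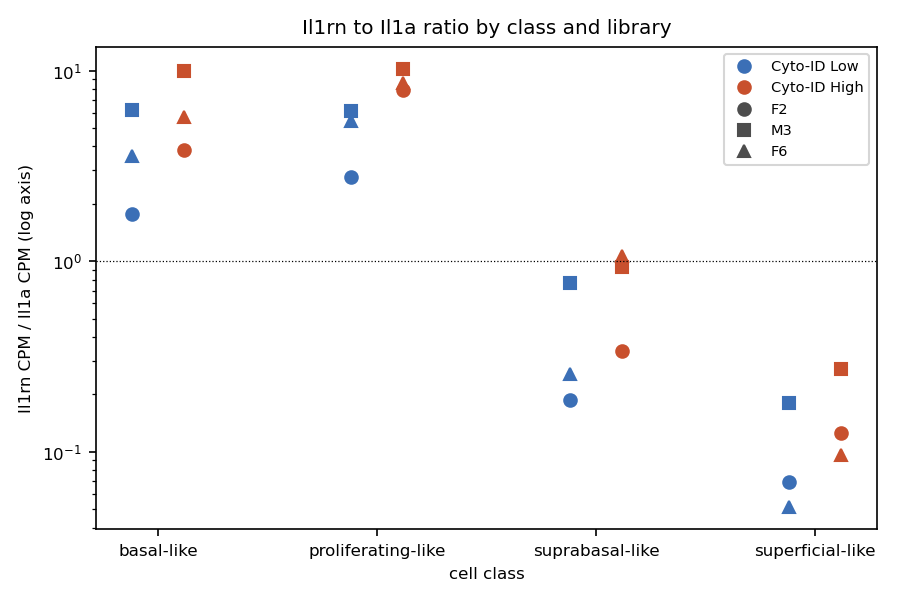
Ratio of Il1rn to Il1a CPM (log axis) in each library (points, shaped by replicate and coloured by group) for 4 cell classes. The ratio is above 1 in every library in basal-like and proliferating-like cells and under 0.3 in every library in superficial-like cells, and the Cyto-ID High library is higher in each pair of all 4 classes.

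For the comparison of Cyto-ID High with Cyto-ID Low founders, log2(CPM + 1) per library was fitted over all genes with limma, without and with the pairing of replicate labels, and p-values were adjusted over all genes by Benjamini-Hochberg with a threshold of 0.05. Same-labelled libraries deviated together in F2 and M3 and only weakly in F6, so paired values are printed where they change a call. In all cells, 0 of 9 tested members passed without the pairing and 1 of 9, Casp4, with it. Of all genes 0.172% passed without and 0.584% with the pairing. Unadjusted p was under 0.05 for 4 members, Casp4, Nlrp10, Il18 and Il33, beside 8.07% of all genes, and with the pairing for these and for Gsdmd and Il1a, beside 16% of all genes. The members' median difference was -0.61 against -0.0023 over all genes, and 5 of 9 members had groups that did not overlap, against 13.5% of all genes.

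**Figure D3:**
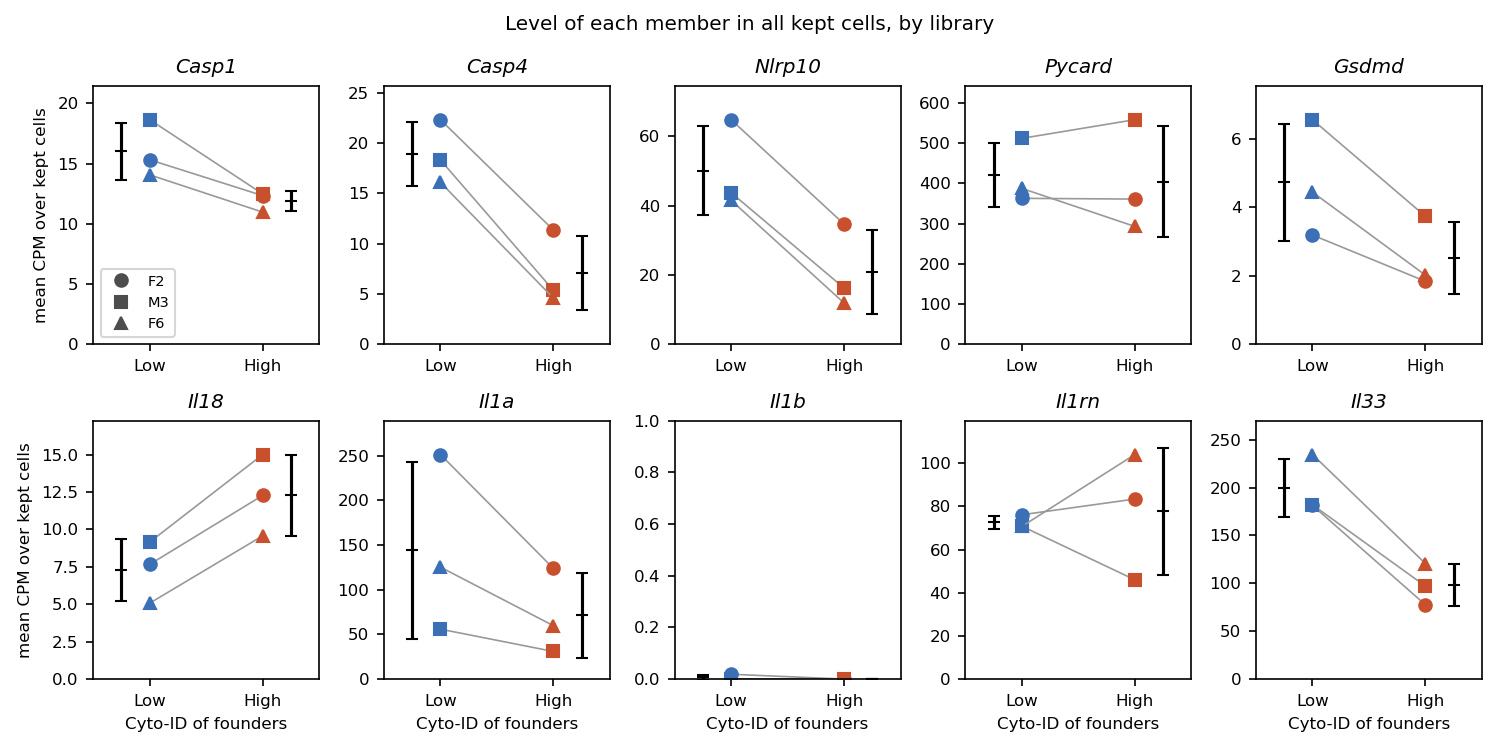
Mean CPM of each gene in all kept cells of each library, by the Cyto-ID state of the founders; grey lines join libraries with the same label, and black bars are the mean ± SD of 3 libraries. Casp4, Nlrp10, Il33 and Casp1 are lower and Il18 is higher in Cyto-ID High, without overlap, while Pycard and Il1rn cross.

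Casp4 was at 22.3, 18.3 and 16.1 CPM in Cyto-ID Low F2, M3 and F6, and at 11.3, 5.36 and 4.58 CPM in Cyto-ID High F2, M3 and F6. Every Cyto-ID High library was below every Cyto-ID Low library. The means were 18.9 ± 3.16 and 7.09 ± 3.70 CPM (SD, n = 3), a log2 difference of -1.28 ± 0.26 (SE; limma, adjusted p = 0.203), and with the pairing Casp4 fell by 1.28 (SE 0.18, adjusted p = 0.0413). With equal cluster shares the paired difference was -1.11 (adjusted p = 0.15), and in cells with at least 1000 genes it was -1.53 (adjusted p = 0.189). In cells thinned to 1000 UMIs, it was -1.43 (paired limma adjusted p = 0.0176). Counting was thin at the low end, with 36 Casp4 UMIs in Cyto-ID High F6 and 61 in Cyto-ID High M3.

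Nlrp10 was at 64.8, 43.7 and 41.5 CPM in Cyto-ID Low F2, M3 and F6, and at 34.7, 16.2 and 11.9 CPM in Cyto-ID High F2, M3 and F6, again without overlap. The log2 difference was -1.23 ± 0.32 (SE; limma, adjusted p = 0.372, paired 0.0561), and -0.94 with equal cluster shares (paired 0.262). Casp1, at 14.1 to 18.7 CPM in Cyto-ID Low and 10.97 to 12.5 CPM in Cyto-ID High libraries, differed by -0.29 ± 0.19, by -0.43 with equal cluster shares and by 0.04 in cells thinned to 1000 UMIs. Gsdmd means were 4.73 ± 1.70 and 2.53 ± 1.05 CPM, and Pycard means 421 ± 80.0 and 404 ± 138 CPM (SD, n = 3), both with overlapping groups. The Cyto-ID High library was the lower one for Gsdmd in each of 3 pairs (log2 differences of -0.55, -0.48 and -0.79; paired limma adjusted p = 0.199), and pair differences of Pycard had both signs.

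Il18 went the other way. It was at 7.67, 9.16 and 5.07 CPM in Cyto-ID Low F2, M3 and F6, and at 12.3, 15.0 and 9.58 CPM in Cyto-ID High F2, M3 and F6. Groups did not overlap, and the log2 difference was 0.79 ± 0.25 (SE; limma, adjusted p = 0.505, paired 0.115), and 0.71 with equal cluster shares (paired 0.407).

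Il33 was at 181, 182 and 234.5 CPM in Cyto-ID Low F2, M3 and F6, and at 77.5, 97.0 and 121 CPM in Cyto-ID High F2, M3 and F6, also without overlap. The log2 difference was -0.92 ± 0.28 (SE; limma, adjusted p = 0.482, paired 0.116), and -0.54 with equal cluster shares. Il1a levels were 251, 55.8 and 125 CPM in Cyto-ID Low F2, M3 and F6, and 124, 30.9 and 59.7 CPM in Cyto-ID High F2, M3 and F6. The Cyto-ID High library was lower in each of 3 pairs, while the groups overlapped. The log2 difference was -0.86 ± 0.56 (SE; limma, adjusted p = 0.714, paired 0.114), and -0.25 with equal cluster shares (paired 0.745). Il1rn means were 72.5 ± 3.09 and 77.8 ± 29.4 CPM (SD, n = 3), and its pair differences had both signs.

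Within basal-like cells Nlrp10 and Casp4 were lower and Il18 higher in Cyto-ID High. Of 9 tested members 0 passed limma without the pairing (5 had an unadjusted p under 0.05, as did 6.69% of all genes) and 3 with it, beside 0.241% and 0.913% of all genes. Nlrp10 was at 102.5, 69.1 and 72.0 CPM in Cyto-ID Low F2, M3 and F6, and at 45.0, 23.9 and 16.1 CPM in Cyto-ID High F2, M3 and F6. With the pairing it fell by 1.42 (SE 0.20, limma adjusted p = 0.0131). Casp4 fell by 1.16 (adjusted p = 0.0356), from 20.8 ± 2.32 CPM in Cyto-ID Low libraries (SD, n = 3), and leaving out pair F2 gave -1.31 and an adjusted p of 0.0566. Il18 was at 3.56, 6.83 and 1.51 CPM in Cyto-ID Low F2, M3 and F6, and at 11.9, 18.3 and 9.66 CPM in Cyto-ID High F2, M3 and F6. It rose by 1.78 with the pairing (SE 0.24, limma adjusted p = 0.00962). Counting was thin, with 39, 90 and 3 Il18 UMIs in basal-like cells of Cyto-ID Low F2, M3 and F6. Cyto-ID High F2, M3 and F6 held 209, 58 and 31. In Cyto-ID High F6 Casp4 and Nlrp10 rested on 16 and 49 basal-like UMIs.

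These 3 differences were smaller with equal shares of the basal-like clusters, where paired limma adjusted p-values were 0.115 for Nlrp10 (-1.11), 0.194 for Casp4 (-1.05) and 0.165 for Il18 (1.41). In cells with at least 1000 genes none of the 3 passed (paired limma adjusted p = 0.0914, 0.315 and 0.226), with log2 differences of -1.55, -1.21 and 1.65, and in cells thinned to 1000 UMIs each passed (0.0184, 0.0403 and 0.00948). Of all genes 0.104% passed with equal shares, 0.121% with at least 1000 genes and 1.26% in thinned cells. By cluster, Nlrp10 differed by -1.03 in the Tmem176b, -0.96 in the U90926 and -3.57 in the Igfbp2 cluster, the last with a paired limma adjusted p of 0.0419. In that cluster Nlrp10 was at only 0 to 4.59 CPM in Cyto-ID High libraries, so the size of its difference is limited by counting. Casp4 was lower in Cyto-ID High in the same 3 clusters, by log2 differences of -0.82, -1.24 and -2.05. Il18 differed by 1.24 and 2.54 in the Tmem176b and Igfbp2 clusters and by -0.24 in the U90926 cluster. In the Igfbp2 cluster Il18 was at 10.8, 12.5 and 0 CPM in Cyto-ID Low F2, M3 and F6, and at 24.7, 32.9 and 20.0 CPM in Cyto-ID High F2, M3 and F6. The Igfbp2 cluster held only 151, 272 and 82 cells in Cyto-ID Low F2, M3 and F6, so the 0 in F6 may be a limit of counting. It held 592, 579 and 568 cells in Cyto-ID High F2, M3 and F6. That cluster, the low one for Nlrp10 and the high one for Il18 among basal-like clusters in Cyto-ID High, was also the one with the larger share in Cyto-ID High.

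**Figure D4:**
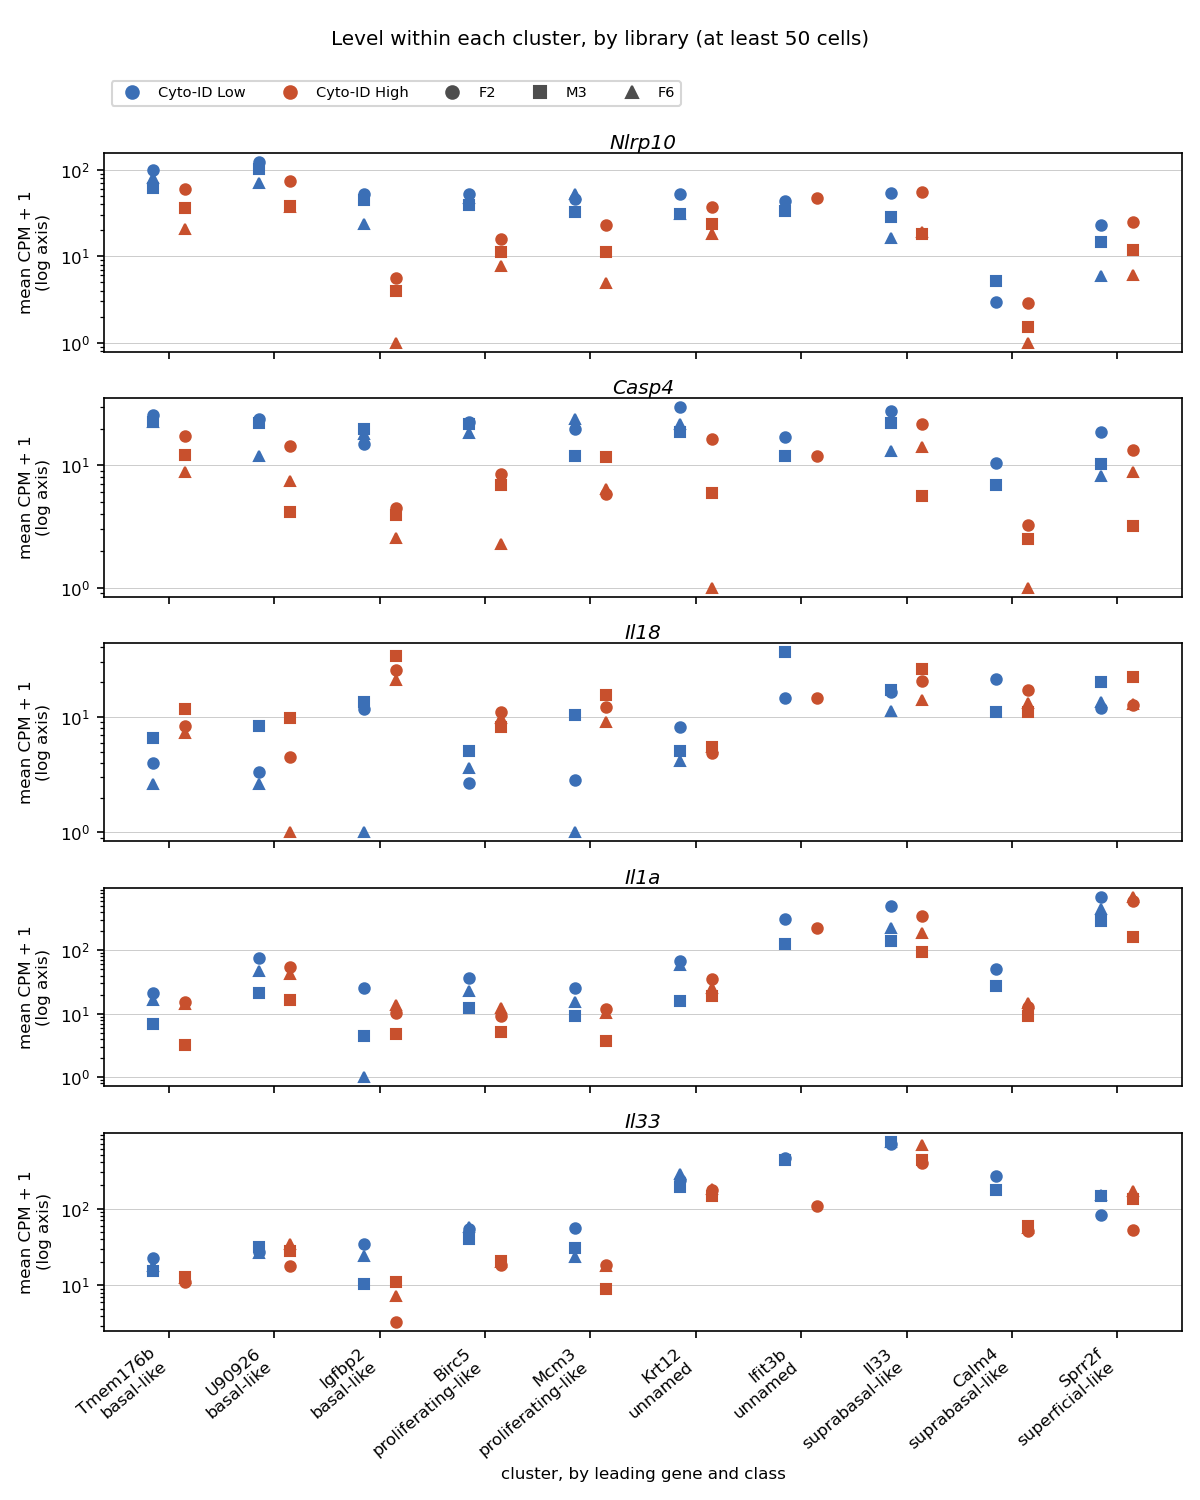
Level of 5 genes within each cluster (CPM + 1, log axis), with 1 point per library that held at least 50 cells of the cluster, blue for Cyto-ID Low and orange-red for Cyto-ID High, shaped by replicate label. Nlrp10 and Casp4 stand well apart between groups in the basal-like Igfbp2 cluster, and Il33 values overlap between groups in the U90926, Igfbp2 and Sprr2f clusters and not in the other clusters shown, while in superficial-like cells the groups overlap for all 5 genes.

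Proliferating-like cells showed the same directions. Here 0 of 9 tested members passed limma without the pairing (6 had an unadjusted p under 0.05, as did 7.86% of all genes) and 1 of 9, Nlrp10, with it, beside 0.197% and 0.361% of all genes. Nlrp10 was at 49.3, 36.0 and 48.7 CPM in Cyto-ID Low F2, M3 and F6, and at 17.0, 10.2 and 5.81 CPM in Cyto-ID High F2, M3 and F6. The log2 difference was -1.85 ± 0.32 (SE; limma, adjusted p = 0.051), and with the pairing Nlrp10 fell by 1.85 (adjusted p = 0.0483). With equal cluster shares it was -1.83 (paired limma adjusted p = 0.0553), and in cells thinned to 1000 UMIs -1.60 (paired 0.0861), and with at least 1000 genes -1.90 (paired 0.0543). Without Cyto-ID High M3 both Nlrp10 and Casp4 passed unpaired, and without Cyto-ID Low M3 Il18 did. These calls rest on few UMIs. Proliferating-like cells of Cyto-ID High F6 held 15 Nlrp10 and 5 Casp4 UMIs, and those of Cyto-ID Low F2, M3 and F6 held 8, 25 and 1 Il18 UMIs. Il33 was at 53.8, 36.1 and 39.4 CPM in Cyto-ID Low F2, M3 and F6, and at 17.3, 15.8 and 18.4 CPM in Cyto-ID High F2, M3 and F6, without overlap, and did not pass (-1.08 ± 0.25, SE; limma, adjusted p = 0.196, paired 0.119).

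In suprabasal-like cells the paired fit called the 2 alarmins, beside 1.82% of all genes, and the limma fit without pairing called 0 of 9 members, beside 0.201% (3 had an unadjusted p under 0.05, as did 12.2% of all genes). Il33 was at 641, 616 and 697 CPM in Cyto-ID Low F2, M3 and F6, and at 234, 222 and 355 CPM in Cyto-ID High F2, M3 and F6. It fell by 1.22 with the pairing (SE 0.21, limma adjusted p = 0.0355). Il1a was at 437, 116 and 216 CPM in Cyto-ID Low F2, M3 and F6, and at 196, 44.8 and 98.3 CPM in Cyto-ID High F2, M3 and F6. It fell by 1.14 (SE 0.18, limma adjusted p = 0.0304), by nearly equal amounts in the 3 pairs (-1.21, -1.09 and -1.11). Casp4 differed by -1.29 in these cells, more than either alarmin and without overlap of the groups. It did not pass (limma adjusted p = 0.221, paired 0.0594).

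Both suprabasal calls ended with equal shares of the 2 suprabasal-like clusters, where Il33 differed by -0.67 (paired limma adjusted p = 0.691) and Il1a by -0.52 (0.703). Leaving out pair F2 also ended both, at differences of -1.08 for Il33 and -1.10 for Il1a (paired limma adjusted p = 0.423 and 0.353). The limit of 1000 genes per cell did so at -1.25 and -1.47 (0.0659 and 0.0529), while both passed in thinned cells (0.0125 and 0.0148). Of all genes 0.00912% passed with equal shares, 0.338% without pair F2, 0.282% with at least 1000 genes and 2.09% in thinned cells. Il33 had far lower levels in the Calm4 cluster, which held a larger share of Cyto-ID High libraries. Its levels there were 264 and 171 CPM in Cyto-ID Low F2 and M3, and 49.9, 59.1 and 55.3 CPM in Cyto-ID High F2, M3 and F6, with only 47 cells in Cyto-ID Low F6. In the cluster that Il33 leads, its levels were 699, 742 and 735 CPM in Cyto-ID Low F2, M3 and F6, and 388, 432 and 665 CPM in Cyto-ID High F2, M3 and F6. The groups did not overlap in that cluster either, and the difference did not pass (-0.59; paired limma adjusted p = 0.759).

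For Il1a and Il33, levels in superficial-like cells overlapped between groups. These cells gave 0 calls among 8 tested members in both limma fits, with an unadjusted p under 0.05 for 0 members without the pairing and for 1, Casp1, with it. Of all genes 0.0197% passed without and 0% with the pairing, where 430 of 10156 genes had an unadjusted p under 0.05. Il1a means were 478 ± 204 and 479 ± 277 CPM (SD, n = 3), and Il33 means 124 ± 36.7 and 119 ± 60.3 CPM. Casp1 was at 3.98, 4.37 and 2.73 CPM in Cyto-ID Low F2, M3 and F6, and at 2.22, 1.70 and 0 CPM in Cyto-ID High F2, M3 and F6, on 76 UMIs in all.

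Whether the Cyto-ID difference itself differed between suprabasal-like and basal-like cells was tested on the difference of the 2 classes within each library. None of 9 members passed, nor did any of 11962 genes (0% of all genes without and 0% with the pairing, limma), of which 1372 and 1553 had an unadjusted p under 0.05. The largest step was that of Il18, which was higher in Cyto-ID High by 1.78 in basal-like and by 0.27 in suprabasal-like cells, a step of -1.51 ± 0.31 (SE; limma, adjusted p = 0.289) that was negative in 3 of 3 pairs.

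**Figure D5:**
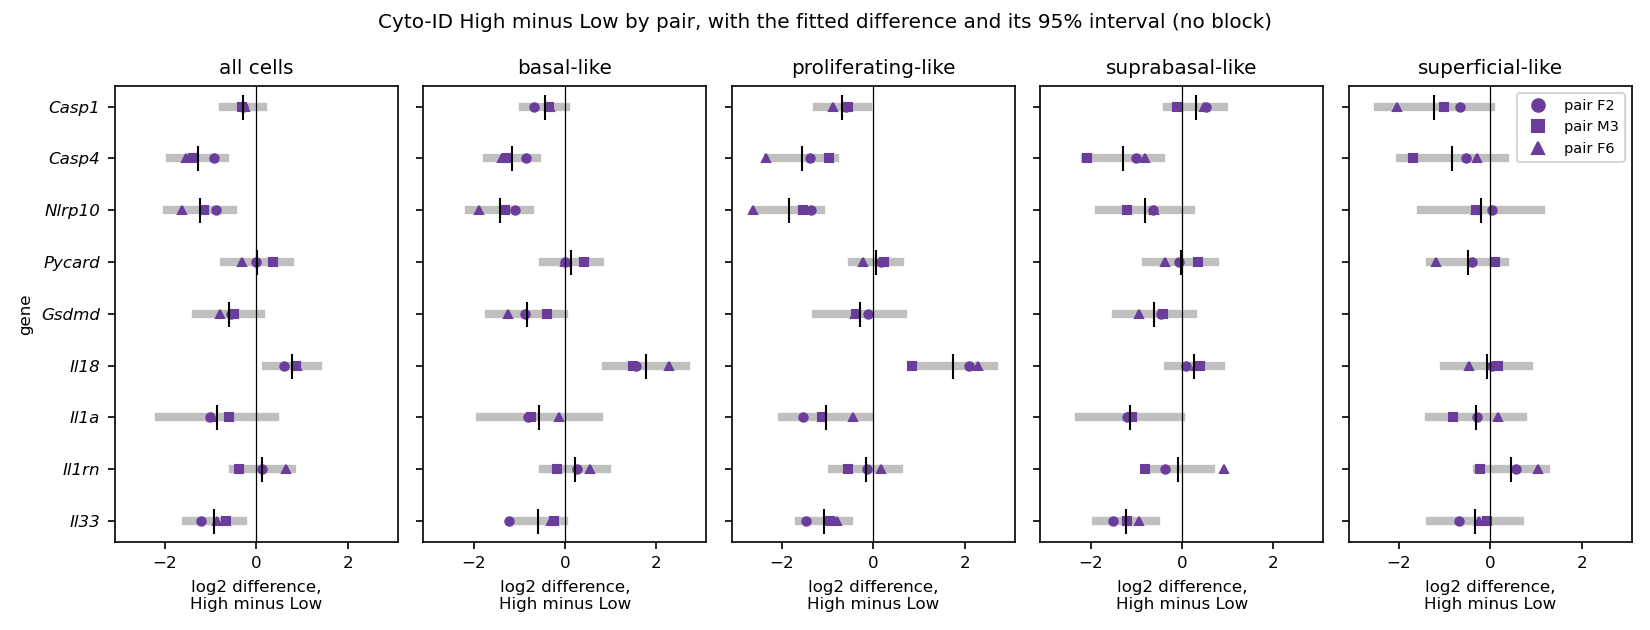
Log2 difference of Cyto-ID High minus Low for 9 genes in all cells and 4 classes: points are the 3 pairs, black ticks the fitted difference and grey bars its 95% interval without the pairing. Casp4 is below 0 in every pair and class, Il18 is above 0 in every basal-like and proliferating-like pair and less so in suprabasal-like pairs, and Pycard and Il1rn straddle 0; Gsdmd was not tested in superficial-like cells.

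Genes around the members were read from 5 lists. Among 26 inflammasome sensors, partners and pore proteins, 10 were tested in all cells. Only Gsdmc passed, and the median difference was -0.02 against -0.0023 over all genes. Gsdmc reached 1 CPM in Cyto-ID High libraries alone, so it was tested only through the group where it was high, and its values are a description. The call (limma adjusted p = 0.0289) ended without that filter (0.234), in thinned cells (0.134), with at least 1000 genes per cell (0.0732), with equal cluster shares (0.399) and without Cyto-ID Low F2 (0.14), Cyto-ID Low F6 (0.235) or Cyto-ID High F6 (0.0963). Gsdmc, a gasdermin of epithelium, was at 0.38, 0.74 and 0.17 CPM in Cyto-ID Low F2, M3 and F6, and at 3.37, 4.48 and 5.46 CPM in Cyto-ID High F2, M3 and F6. The log2 difference was 2.00, and 1.29 with equal cluster shares. In suprabasal-like cells Gsdmc was at 1.81, 3.01 and 0.281 CPM in Cyto-ID Low F2, M3 and F6, and at 12.8, 13.5 and 19.3 CPM in Cyto-ID High F2, M3 and F6. The log2 difference there was 2.78, in thinned cells 2.55 and with equal cluster shares 1.61. With 1 library left out it was 1.83 to 2.21 in all cells and 2.34 to 3.14 in suprabasal-like cells. Gsdmc belongs to a family of close copies, among which reads may be split.

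Most other sensors were at or near 0. Nlrp1a and Nlrp1b were at 0 CPM in every library, and no library exceeded 0.0694 CPM for Nlrp3, 0.136 for Nlrc4, 0.148 for Mefv or 0.0379 for Nlrp6. Aim2, a DNA sensor, was at 0.908 and 0.878 CPM in Cyto-ID Low and Cyto-ID High. The most abundant genes of this list were Txnip, an inhibitor of thioredoxin, at 261 ± 154 and 130 ± 113 CPM, Ninj1, which ruptures dying cells, at 50.3 ± 10.2 and 54.7 ± 24.9 CPM, and Casp8, the initiator of death-receptor apoptosis, at 41.1 ± 4.36 and 22.4 ± 5.40 CPM (SD, n = 3 per group). In suprabasal-like cells Casp8 was at 66.3 ± 7.26 and 29.2 ± 8.07 CPM and fell by 1.11 in the paired fit (limma adjusted p = 0.0436, 0.103 unpaired and 0.0374 unpaired at a clustering resolution of 1.0). The paired call ended with equal cluster shares (-0.61, 0.691), with at least 1000 genes per cell (-1.11, 0.0882) and without pair F2 (-1.16, 0.338).

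Of 16 receptors, inhibitors and adaptors of IL-1 and IL-18, 12 were tested in all cells and none passed in either fit. The most abundant were Tollip, an inhibitor of the pathway, at 23.1 and 28.8 CPM in Cyto-ID Low and Cyto-ID High, the kinase gene Irak1 at 19.9 and 20.3 CPM, and the IL-18 receptor gene Il18r1 at 18.5 and 10.7 CPM. Il1r1, the receptor that IL-1α binds, was at 6.08 and 4.56 CPM. Il1rl1, which encodes the IL-33 receptor ST2, did not exceed 0.309 CPM in any library. Among 11 other IL-1 family ligands and alarmins, 8 were tested and none passed. The IL-36 genes Il1f9, Il1f6 and Il1f8 were at 22.3, 8.89 and 3.01 CPM in Cyto-ID Low and at 33.6, 3.84 and 3.43 CPM in Cyto-ID High. Hmgb1, Hmgb2 and S100a9 were the most abundant, at 284, 171 and 47.3 CPM in Cyto-ID Low and 352, 239 and 70.0 CPM in Cyto-ID High.

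Of 15 NF-kB target genes 14 were tested in all cells, and none passed. The median difference was -0.23, against -0.0023 over all genes. Nfkbia, the inhibitor that NF-kB induces, was at 694 ± 51.6 and 609 ± 165 CPM, and Cxcl5 and Nfkbiz were at 127 and 82.3 CPM in Cyto-ID Low and 71.3 and 67.6 CPM in Cyto-ID High. Il6 did not exceed 0.0287 CPM. In suprabasal-like cells Lcn2, an iron-binding antimicrobial protein, was at 32.5, 70.0 and 5.41 CPM in Cyto-ID Low F2, M3 and F6, and at 263, 209 and 46.8 CPM in Cyto-ID High F2, M3 and F6. It rose by 2.56 in the paired fit (limma adjusted p = 0.00695, 0.251 unpaired) and by 3.22 with equal cluster shares (paired 0.00189), but at a clustering resolution of 1.0 the suprabasal-like difference was -0.54. Of 15 guanylate-binding proteins and interferon-induced GTPases, with their regulators, 14 were in the tables, 4 were tested in all cells and none passed. Mean levels of the regulator gene Irf1 were 15.8 and 10.8 CPM for Cyto-ID Low and Cyto-ID High founders.

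Genes whose level over 24 library-by-class values was most like that of a member were ranked by Pearson's r among 6942 genes, as a description over values that share libraries. Il1a was followed most closely by Gprc5a (0.991), Mgat4a (0.985), Mxd1 (0.977) and Ppbp (0.974). Il33 was closest to Aldh1a7 (0.961), Shroom3 (0.952), Nbeal2 (0.947) and the stress keratin gene Krt6a (0.934). For Nlrp10 the nearest were Car9 (0.912), Srsf5 (0.897), Setd5 (0.896) and Rnf130 (0.894), and for Casp4 Copb2 (0.876), Pafah1b1 (0.86), Ap3b1 (0.86) and Srsf5 (0.856). Neighbours were ranked for these 4 genes and for Il1rn, whose nearest were Mast4 (0.83), Smim11 (0.825), Mob1a (0.822) and Mettl14 (0.813).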

How the data were processed

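Droplet 3′ single-cell RNA libraries of esophageal organoids were used, 3 libraries for each Cyto-ID state of the founders. The deposited values are natural log values that the authors made per cell: ln(1 + UMIs × 10000 / total UMIs), read from the values, since they give whole UMIs for every entry. Per the submitters' processing notes, Cell Ranger 6.0.0 and Seurat 4 were used, with the mm10 and GRCm38 builds named. Whether counting used the strand is not given in the sources used here.

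UMIs were recovered from these values and cells with at least 500 detected genes were kept. Seurat 5.3.0 (R 4.3.3) grouped these cells into clusters with the 10 genes left out, and classes were named from marker lists. Scrublet in scanpy 1.11.5 (Python 3.11.15) called too few doublets to rely on, so none were removed. The mean CPM per library, scaled by trimmed mean of M values, was tested as log2(CPM + 1) with limma 3.58.1 (trend) over genes with at least 1 CPM in 3 libraries, with Benjamini-Hochberg adjustment over all genes and a threshold of 0.05. Log2 differences of low genes are understated on this scale. The unpaired fit was tested on simulated counts for all, basal-like and suprabasal-like cells. Those counts had the same fixed spread beyond counting for every gene and no differences between replicate labels. That test therefore checks the working of the fit and does not measure its error rates in these libraries. The paired fit, the layer step and the other classes were not tested in this way. Libraries with the same label were taken as pairs because their deviations from the group means correlated in each of 3 pairs (0.76, 0.57 and 0.14 for F2, M3 and F6, over 8876 genes). The F6 pairing is the weakest, since Cyto-ID High F6 correlated slightly more with Cyto-ID Low F2 (0.17). In basal-like cells Cyto-ID High F6 correlated at 0.245 with Cyto-ID Low F2 and at 0.14 with Cyto-ID Low F6. Genes of the lists named are the most abundant, those past the threshold and those at or near 0. A few more, such as Il1r1 and the IL-36 genes, were named outside these rules. The members and lists were chosen with earlier results of these data known. Alternatives covered the pseudocount, filters, scaling, depth, doublets, clustering, pairing and left-out libraries.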

Additional observations from a re-analysis of the deposited data

How the results depend on the processing

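Settings on fixed cluster make-up, single clusters, left-out pairs and the paired fits with other scaling, depth or cell filters were chosen after seeing the data. The number of members past the threshold, 0 in each unpaired fit (of 9 tested, and of 8 in superficial-like cells), became 1 in all cells, 3 in basal-like, 1 in proliferating-like and 2 in suprabasal-like cells with the replicate block, which changed no call in superficial-like cells or in the step between layers. Leaving out pair F2, M3 or F6 from the block gave 2, 4 and 5 members in all cells, 2, 3 and 4 in basal-like, 1, 4 and 5 in proliferating-like, and 0, 2 and 4 in suprabasal-like cells. In the same fits 1.66%, 3.82% and 6.33% of all genes passed in all cells, 0.973%, 6.16% and 3% in basal-like, 0.609%, 3.6% and 4.73% in proliferating-like and 0.338%, 11.2% and 4.8% in suprabasal-like cells, and these fits have few degrees of freedom. Plain CPM with the block gave 4, 3, 1 and 3 members in these 4 fits, cells thinned to 1000 UMIs with the block 1, 3 and 2 in all, basal-like and suprabasal-like cells, and the Igfbp2 cluster alone with the block 1. Of all genes 1.59%, 1.02%, 0.343% and 4.32% passed with plain CPM and the block, 0.652%, 1.26% and 2.09% in thinned cells and 0.241% in the Igfbp2 cluster. With equal cluster shares or at least 1000 genes per cell the block called 0 members in each of the 4 fits. Few genes of any kind passed there: 0.0686%, 0.104%, 0.318% and 0.00912% of all genes with equal cluster shares. With at least 1000 genes per cell the shares were 0.206%, 0.121%, 0.352% and 0.282%, so a count of 0 says little about the members. Without the block, proliferating-like cells gave 1 member with plain CPM, with Louvain resolution 0.3 and with the members kept in the clustering (0.155%, 0.223% and 0.18% of all genes), and 0 to 2 with 1 library left out (2 without Cyto-ID High M3, beside 0.489% of all genes, and 1 without Cyto-ID Low M3, beside 0.189%). Suprabasal-like cells gave 1, Casp4, at resolution 1.0, beside 1.38%. The cause of these changes was not tested.

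Genes called over the whole table numbered 20 in all cells, 28 in basal-like, 23 in proliferating-like, 22 in suprabasal-like and 2 in superficial-like cells, and reached 737, 715, 551, 1226 and 36 under some alternative and 0 under another. Plain CPM moved the median of all genes by -0.15 in basal-like, -0.17 in proliferating-like and 0.14 in superficial-like cells, and turned the paired split of higher and lower calls from 62 and 6 to 98 and 87 in all cells, from 88 and 18 to 78 and 40 in basal-like, from 31 and 11 to 24 and 16 in proliferating-like and from 140 and 59 to 198 and 275 in suprabasal-like cells.

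Log2 differences that changed sign were these, and none passed the threshold. Pycard in all cells (0.01) was -0.095 with plain CPM, -0.037 from summed UMIs, -0.029 with at least 1000 genes, -0.075 with equal cluster shares, -0.16 without pair M3 and -0.30 to 0.18 with 1 library left out. In basal-like cells Pycard (0.14) was -0.026 with plain CPM, -0.097 and -0.37 in the Tmem176b and U90926 clusters and -0.13 to 0.32 with 1 library left out. In proliferating-like cells it (0.06) was -0.13 with plain CPM, -0.028 without pair M3 and -0.10 to 0.24 with 1 library left out. In suprabasal-like cells it (-0.03) was 0.016 in thinned cells, 0.019 at resolution 0.3, 0.098 at resolution 1.0, 0.15 without pair F6 and -0.35 to 0.14 with 1 library left out. Il1rn was -0.13 in all cells without pair F6, 0.0202 in proliferating-like cells without pair M3, and in suprabasal-like cells 0.00198 from summed UMIs, 0.078 in the Il33 cluster, 0.057 without pair F2 and 0.28 without pair M3. With 1 library left out Il1rn was -0.15 to 0.41 in all, -0.083 to 0.56 in basal-like, -0.51 to 0.19 in proliferating-like and -0.44 to 0.15 in suprabasal-like cells. Casp1 was 0.042 in all cells when thinned, and in suprabasal-like cells -0.19 with equal cluster shares and -0.29 in the Il33 cluster. In basal-like cells Il18 was -0.24 in the U90926 cluster, and Il1a was 1.09 in the Igfbp2 cluster and -1.11 to 0.079 with 1 library left out. Gsdmd in proliferating-like cells was -0.72 to 0.018 with 1 library left out. In superficial-like cells Il18 was 0.065 with plain CPM, 0.11 without pair F6 and -0.45 to 0.15 with 1 library left out, where Nlrp10, Il33 and Il1a were -0.71 to 0.36, -0.67 to 0.18 and -0.61 to 0.23. In the step between layers Gsdmd was -0.10 with at least 1000 genes and at resolution 1.0, Nlrp10 -0.14 in thinned cells and -0.18 at resolution 1.0, and Casp4 0.21 in thinned cells and without pair M3 and -0.33 to 0.21 with 1 library left out. Lcn2 in suprabasal-like cells was -0.54 at resolution 1.0. Too few superficial-like cells, 20 in Cyto-ID High F6, held 1000 genes, so that filter was not run for them. In Cyto-ID High F6, the library with the lowest median depth, Gsdmd, Casp4, Nlrp10 and Il18 rested on 17, 36, 95 and 96 UMIs, and Il1b had 0.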
